A study of Ascaris suum with 10 samples.

Results

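Polyadenylated RNA of second-stage larvae of the pig roundworm Ascaris suum was compared with that of early embryos. The comparison uses 2 of the 8 expression columns of the deposited table, larva and embryo, which stand for 4 of the 10 libraries, and it covers all 15446 genes. The embryo column stands for 3 libraries, of eggs incubated for 24 hr (1 cell), 46 hr (1 to 2 cells) and 64 hr (2 to 4 cells). The sources used here do not say whether it is their average or their pool. The larva column is 1 library of larvae of the L2 stage at 7 days. All worms are labelled as a wild population of North America, with no treatment. The eggs were taken from the uteri of females and then kept in an acid buffer until the stated time, so larvae and embryos alike were inside an eggshell that was stripped before extraction. The adult columns, each of 1 library, are intestine, muscle (with hypodermis), the carcass of either sex (pharynx and neurons besides muscle and hypodermis), and the germinal zones of testis and ovary. The sources used here do not say how many animals or eggs each library pooled.

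In Ascaris, as background, the first divisions after fertilisation are slow, and during early cleavage the cells that will form the soma discard part of the genome that the germ line keeps. The embryo then forms its gut, muscle, nerves and cuticle inside the eggshell and moults there, and the resulting larva waits to be swallowed by a host. The early embryo of this comparison therefore has no differentiated tissue, whereas the larva has a moving body. Body-wall muscle in this worm lies directly under the hypodermis, the layer that makes the cuticle, and both make up most of what the carcass libraries contain besides the pharynx and neurons.

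Values are RPKM, which by the unit's name are reads normalised to gene-model length and to each library's mapped reads. Every difference is log2((larva + 1)/(embryo + 1)), a scale that understates the change of genes at low levels. A gene was called larva-high at 2 or more on this scale, which is 4-fold with 1 RPKM added to each value, and embryo-high at -2 or less. Larva-high genes were then divided by the 4 adult somatic columns (intestine, muscle, male carcass and female carcass). Those with at least 1 of these columns at 5 RPKM or more are called adult-on, and those with all of them below are called larva-only. With 1 library per column there is no replicate error and no test, so the differences below describe these libraries. The table pairs its identifiers with no gene names, so neither stage nor tissue labels could be set against marker genes, and at most 2 identifiers are given for each group.

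Larva-high genes numbered 1361, a background of 8.81% of the table, and embryo-high genes 1809, or 11.7%. Together they made up 20.5% of the genes. Male and female carcass, the only pair of libraries listed with the same tissues, differed by the same rule at 5.98%. Where the higher column reached 10 RPKM, the median absolute log2 difference was 1.15 between larva and embryo (9363 genes) and 0.59 between the carcasses (5916 genes). Just inside the threshold, 114 genes lay between 2 and 2.1 in favour of larva, and just outside it 94 lay between 1.9 and 2. On the embryo side 150 lay just inside and 156 just outside.

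The larva-high genes carried much of the larval RNA signal and little of the embryonic one. They held 26.8% of the summed RPKM of larva and 2.64% of that of embryo. The embryo-high genes held 25.8% of the embryo sum and 2.59% of the larva sum. The 2 sums themselves were close, 564412 RPKM in larva and 583660 in embryo. Over the whole table the log2 ratio had a median of -0.25, which became 0.10 when the columns were rescaled by the median of ratios, and with that shift the larger side turned. The split of 42.9% larva-high among the called genes became 61.7% under that rescaling (1491 and 925 genes) and 58.2% with scaling to an equal upper quartile (1525 and 1097 genes). Which stage has more genes on its side therefore cannot be read from the table, whereas the count of larva-high genes moved less under these rescalings. These shares follow from the size rule and describe the classes it makes.

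**Figure D1:**
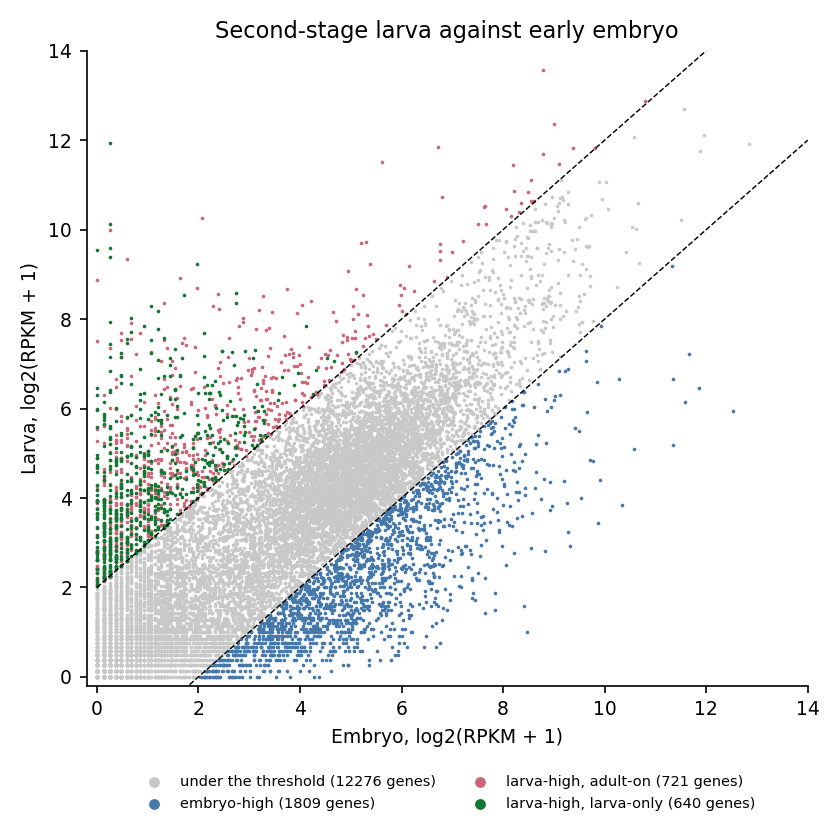
Each point is 1 of 15446 genes, at its embryo level (x) and larva level (y), both as log2(RPKM + 1). Dashed lines mark a difference of 2 in either direction. The 721 adult-on and 640 larva-only genes lie above the upper line and the 1809 embryo-high genes below the lower one.

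Before the classes are described, a feature of the ovary and larva columns bears on several of them. Transcripts abundant in larva were rarely listed in ovary at a small fraction of the larva level. In larva 1918 genes reached 50 RPKM. Only 6 of these (0.313%) stood in ovary below 5% of their larva level, against 186 (9.70%) in embryo, 446 (23.3%) in testis and 489 (25.5%) in intestine. In 477 of them the ovary level was at or above that of larva. For the 170 genes led by larva (50 RPKM or more and at least 5 times every other column) the ovary level had a median of 9.78% of that in larva, with quartiles of 8.40% and 11.4%, where the choice of these genes caps it at 20%. In turn, the 863 genes led by testis among the adult columns had a larva level with a median of 1.30% of that in testis, with quartiles of 1.01% and 1.72%. Over all 863 genes the embryo level had a similar median, 1.13% of that in testis. For the 83 of them that were larva-high, the medians were 1994.9 RPKM in testis, 26.6 in larva and 1.4 in embryo. The choice of these 83 by larva over embryo bears on that gap. What these proportions come from was not tested. Neither ovary nor testis takes part in the division into adult-on and larva-only genes, but testis-led genes can enter the larva-high class through their larva values. The class counts and the leading somatic columns are given below with and without them.

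Adult-on genes, whose transcripts also reach 5 RPKM in some adult somatic column, numbered 721, or 53.0% of the larva-high genes and 4.67% of the table. Their median level was 1.8 RPKM in embryo and 32.6 RPKM in larva. In 252 of them the embryo value was below 1 RPKM. This class held most of the larva-high signal, with 21.6% of the summed RPKM of larva against 5.23% for larva-only genes. Of all genes, 60.2% had an adult somatic column at 5 RPKM or more. In the values as deposited, larva-high genes were therefore not more often active in adult soma than the table as a whole.

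Body-wall expression was the most frequent adult pattern among the larva-high genes. The combination of muscle, male carcass and female carcass without intestine held 229 of them, or 16.8%, whereas it held 9.50% of all genes. Their median level was 30.5 RPKM in larva and 1.4 in embryo, and it was 59.6 in muscle, 31 in female carcass, 33.6 in male carcass and 0.2 in intestine. Genes on in all 4 adult somatic columns came next with 162, or 11.9%, well under the 23.5% that this combination holds in the table. Read the other way, 15.6% of the genes with the body-wall combination were larva-high, 4.47% of those on in all 4 columns, 7.27% of those on in intestine alone and 2.84% of those on in female carcass alone.

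The combination of intestine and male carcass consisted largely of testis-led genes. It had the highest larva-high share of the combinations with 100 genes or more, 51 of 275 genes or 18.5%. Of these 51 genes 38 were testis-led. The medians of the 51 were 2556.9 RPKM in testis, 40.4 in larva, 21.5 in intestine, 16.3 in male carcass and 0.7 in female carcass. Over all larva-high genes 83 were testis-led, of which 66 counted as adult-on. The 83 made up 9.62% of the 863 testis-led genes, close to the 8.81% of all genes that were larva-high. Embryo-high were 93 testis-led genes (10.8%), against 11.7% of all genes. These 83 genes had medians of 1994.9 RPKM in testis and 26.6 RPKM in larva, 1.24% of the testis level. Without testis-led genes the larva-high class held 1278 genes, of which 655 were adult-on and 623 larva-only.

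**Figure D2:**
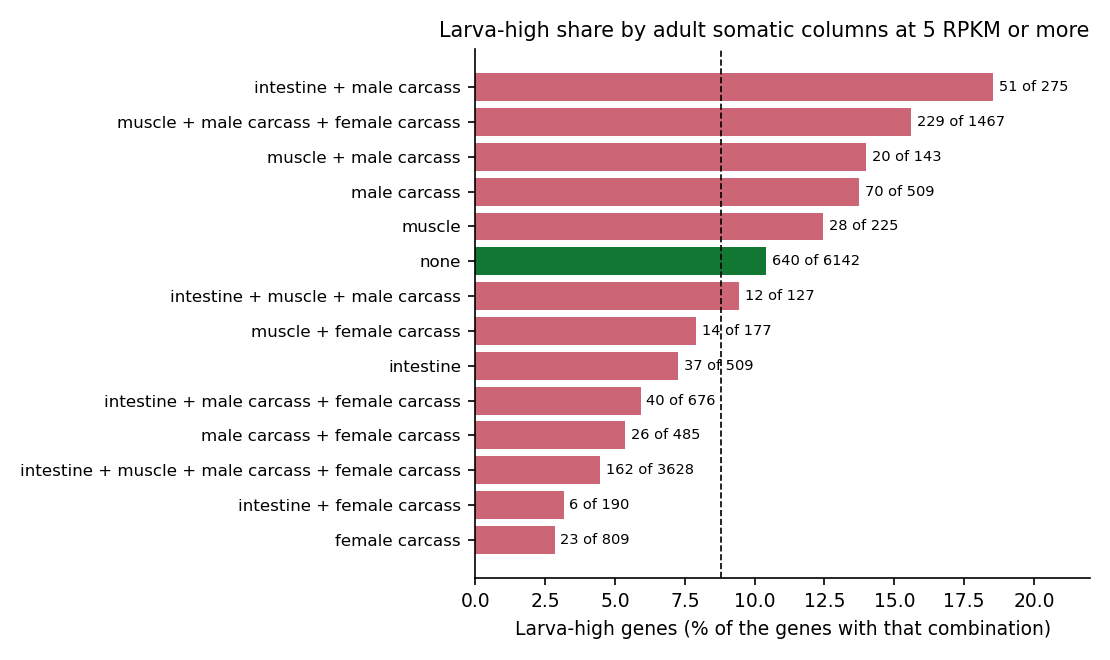
Bars give the percentage of genes that were larva-high, among genes that reach 5 RPKM in exactly the named adult somatic columns (combinations with 100 genes or more), with the counts beside them. The dashed line is the 8.81% of all genes, and "none" is the larva-only class. The body-wall combination stands at 15.6% and the combination of all 4 columns at 4.47%.

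How far the adult level exceeded the larval one varied widely within the adult-on class. The highest adult somatic level was at least that of larva in 383 genes (53.1%), and for 159 of them it was at least 5 times the larva level. At the other end, 61 adult-on genes had a highest adult somatic level below 10% of that in larva. In all, larva was the highest of the 8 columns for 284 adult-on genes, muscle for 152, intestine for 95, testis for 77, male carcass for 51, female carcass for 48 and ovary for 14. Among the 4 somatic columns alone, muscle was highest for 238, intestine for 200, male carcass for 178 and female carcass for 105. With testis-led genes left out these became 237 for muscle, 171 for intestine, 142 for male carcass and 105 for female carcass.

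The 2 adult-on genes with the largest ratios belonged to those with little adult expression. ASG01437 stood at 1021.3 RPKM in larva, 0.2 in embryo and 74 in ovary. It had 2.5 RPKM in muscle, 3.8 in female carcass and 6.6 in male carcass, and was listed at 0 in testis and intestine. Its log2 ratio was 9.73, and its highest adult somatic level was 0.646% of that in larva. ASG05171 stood at 465.9 RPKM in larva, was listed at 0 in embryo, testis and muscle, and had 44.8 in ovary, 1.2 in intestine, 3.3 in female carcass and 6.6 in male carcass (log2 ratio 8.87). Both are adult-on through male carcass alone. Near this limit 38 adult-on genes had a highest adult somatic level from 5 to under 6 RPKM and 52 larva-only genes had one from 4 to under 5 RPKM.

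Whether the program of an adult tissue was on in the larva was asked next with genes chosen from the 6 adult columns alone, so that neither larva nor embryo values entered the choice. A gene was led by a tissue when it stood there at 50 RPKM or more and at least 5 times higher than in every other adult column. For the body wall the lowest of muscle, male carcass and female carcass had to meet this against intestine, testis and ovary. In all 290 genes were body-wall-led and 184 were intestine-led. Both groups started from a like level in embryo, a median of 2.3 RPKM for body-wall-led and 2.2 RPKM for intestine-led genes.

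Body-wall-led genes were higher in larva far more often than intestine-led genes. In larva 148 of the 290 body-wall-led genes (51.0%) reached 5 RPKM, against 109 (37.6%) in embryo. Of the 184 intestine-led genes 59 (32.1%) reached 5 RPKM in larva, against 71 (38.6%) in embryo. Over all genes the shares were 58.9% in larva and 61.2% in embryo. By the log2 rule 78 body-wall-led genes (26.9%) were larva-high and 28 (9.66%) embryo-high. For intestine-led genes these were 15 (8.15%) and 23 (12.5%), close to the 8.81% and 11.7% of all genes. The median log2 ratio was 0.60 for body-wall-led genes (quartiles -0.45 and 2.19), 0.00 for intestine-led genes (quartiles -0.93 and 0.58) and -0.25 for all genes. The difference between the 2 groups of genes has no replicate behind it and was not tested.

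The larva-high share of body-wall-led genes stayed between 25.9% and 28.6% under 3 rescalings of the columns and after a subtraction of small testis and ovary percentages from larva, whereas that of intestine-led genes stayed between 6.52% and 8.70%. It was higher for the most abundant body-wall genes. Of the 87 genes with a lowest body-wall level of 500 RPKM or more 33 (37.9%) were larva-high, against 16 of the 75 genes (21.3%) from 50 to under 100 RPKM, with 10 of 62 (16.1%) from 100 to under 200 and 19 of 66 (28.8%) from 200 to under 500 RPKM. Low levels remained the rule, because a body-wall-led gene stood in larva at a median of 1.70% of its lowest body-wall level. Within the 78 larva-high members that median was 15.7%, with quartiles of 4.08% and 40.3%. In bulk RNA of a whole larva, fewer cells of a type and less RNA per cell cannot be told apart.

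The same contrast held among genes that were off in the embryo. Of 115 body-wall-led genes below 1 RPKM in embryo, 34 (29.6%) reached 5 RPKM in larva and 46 stayed below 1 RPKM there. Of 60 intestine-led genes below 1 RPKM in embryo, 6 (10.0%) reached 5 RPKM and 36 stayed below 1 RPKM. Over all 3233 genes below 1 RPKM in embryo, 568 (17.6%) reached 5 RPKM in larva. With less narrow sets the order was alike. Of genes at 5 RPKM or more in muscle and below 1 RPKM in embryo, 146 of 588 (24.8%) reached 5 RPKM in larva, and of those at 5 RPKM or more in intestine 71 of 447 (15.9%) did. A gene may count in both sets. Genes led by all 4 adult somatic columns, by the same rule on their lowest value, numbered 59, of which 10 (16.9%) were larva-high. Of their 23 below 1 RPKM in embryo, 8 (34.8%) reached 5 RPKM in larva. Of 64 genes led by male carcass, 5 (7.81%) were larva-high, and 3 of 27 (11.1%) below 1 RPKM in embryo reached 5 RPKM. The body-wall share was thus neither the highest nor shared by every carcass set.

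**Figure D3:**
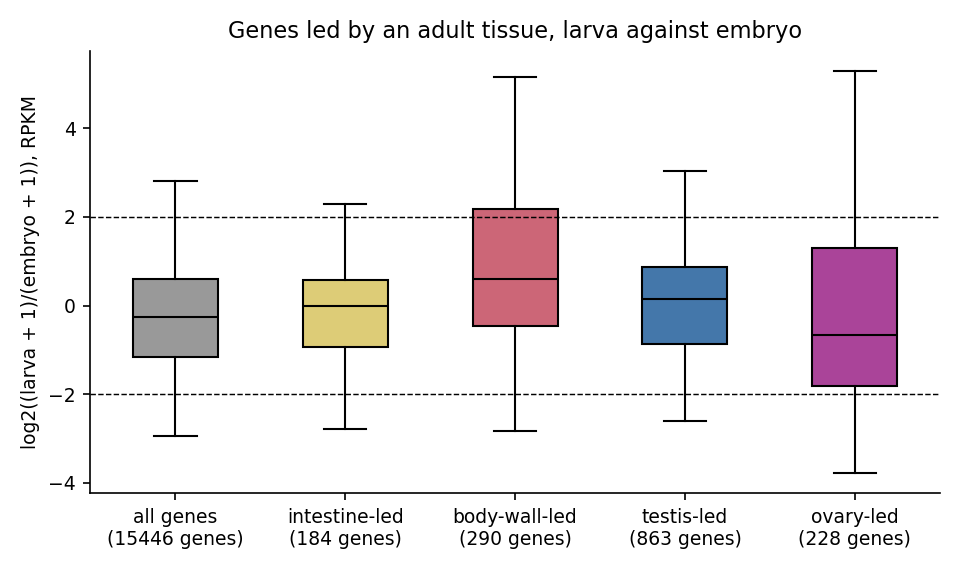
Boxes show log2((larva + 1)/(embryo + 1)) over genes led by an adult tissue, with the median, the quartiles and whiskers at the 5th and 95th percentiles. Dashed lines mark 2 and -2. The upper quartile of the 290 body-wall-led genes lies at 2.19, above the line, and that of the 184 intestine-led genes at 0.58.

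Examples from the body-wall-led group are the 2 larva-high members with the highest larva levels, which are not typical of it. The median larva level was 42.6 RPKM over the 78 larva-high members and 5.75 RPKM over all 290 genes. ASG05630 stood at 651.7 RPKM in larva and 0.5 in embryo, with 3439.4 in muscle, 1819.7 in female carcass, 1477.5 in male carcass, 1.3 in intestine, 0.4 in testis and 61.6 in ovary. Its larva level was 18.9% of that in muscle, and its log2 ratio was 8.77. ASG12363 stood at 412.2 RPKM in larva and already at 65 in embryo, with 1282 in muscle, 581.9 in female carcass, 455.9 in male carcass, 0.1 in intestine, 0.7 in testis and 29.2 in ovary (log2 ratio 2.65). The former was below 1 RPKM in embryo and the latter was not. In ovary they stood at 9.45% and 7.08% of their larva level.

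The 2 larva-high genes of the intestine-led group with the highest larva levels are given as examples. ASG03683 stood at 312.3 RPKM in larva, 32.1 in embryo, 300 in intestine, 41.8 in muscle, 12.1 in female carcass, 24.3 in male carcass, 14.5 in testis and 55.2 in ovary (log2 ratio 3.24). ASG01101 stood at 255.3 RPKM in larva, 32.2 in embryo, 208.9 in intestine, 6.6 in muscle, 28.7 in female carcass, 15.5 in male carcass, 3.1 in testis and 28.2 in ovary (log2 ratio 2.95). These 2 genes, picked for their larva level, stood in larva slightly above their level in adult intestine. Over all 184 intestine-led genes the median larva level was 0.720% of the intestine level. Over the 15 larva-high members it was 9.93%, a higher value that their selection on larva fixes.

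Gonad-led genes followed other patterns. Of 72 genes led by both gonads, by the same rule on their lower value, 22 (30.6%) were larva-high and 21 (29.2%) embryo-high. The 22 had medians of 3772.4 RPKM in testis, 142.25 in ovary, 47.6 in larva and 1.95 in embryo. Genes at least 5 times higher in testis than in ovary can count as testis-led too. The overlap was not counted, and this set is not given without testis-led genes. A larva-high share above that of all genes was therefore not particular to the body wall. Ovary-led genes were called in both directions more often than the background, with 42 of 228 (18.4%) larva-high and 51 (22.4%) embryo-high. In larva 198 of them (86.8%) reached 5 RPKM and in embryo 189 (82.9%), which for larva is to be read beside the ovary proportions given above. After the subtraction from larva of 1.20% of the testis and 2.37% of the ovary value, medians of genes led by these columns, 149 (65.4%) still reached 5 RPKM there. Testis-led genes reached 5 RPKM in larva in 195 of 863 cases (22.6%), fewer than the 240 (27.8%) in embryo. After the subtraction 48 (5.56%) did so in larva, a fall that subtracting such genes' own median share largely fixes.

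Larva-only genes numbered 640, or 47.0% of the larva-high genes and 4.14% of the table. This division depends on the scaling of the columns. Larva-only genes were 36.1% of the larva-high genes with the median of ratios (538, with 953 adult-on). With upper-quartile scaling they were 38.0% (579, with 946 adult-on), and with an equal sum 48.8% (717, with 751 adult-on). They were expressed at lower levels than adult-on genes, with a median of 17 RPKM in larva (quartiles 8.9 and 39.05) and 0.7 RPKM in embryo. In 367 of them the embryo value was below 1 RPKM, and 47 of these were listed at 0. Their medians in the adult somatic columns were 0 RPKM (intestine), 0.1 (muscle), 0.4 (female carcass) and 0.7 (male carcass). The limits on those columns are part of the rule. Of the 640 larva-only genes 282 stayed below 1 RPKM in all 4 columns. This was near the share among all genes with no adult somatic column at 5 RPKM, of which 2515 of 6142 did so. Of all genes without an adult somatic column at 5 RPKM, 10.4% were larva-high, against 7.75% of the genes with such a column.

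Larva was the highest of the 8 columns for 586 larva-only genes (91.6%), followed by ovary for 28 and testis for 23. The rule holds embryo below larva and every adult somatic column below 5 RPKM. For most of these genes only the gonads could therefore exceed larva, so the rule largely fixes the 91.6%. Testis, which the rule does not use, reached 5 RPKM for 47 (7.34%) of the larva-only genes, against 42.7% of all genes. Ovary did so for 201 (31.4%), against 56.5% of all genes. All genes include those on in adult soma, which the rule leaves out, so these gaps do not isolate the larva-only genes. If both gonads are also required to stay below 5 RPKM, 419 of the 640 genes remained, and 291 of these were also below 1 RPKM in embryo. Among all 6142 genes with no adult somatic column at 5 RPKM, 3192 had both gonads below 5 RPKM. In all 6 adult columns 62 larva-only genes stayed below 1 RPKM, against 1031 of the 6142. The 4 somatic columns alone already left 282 of the 640. Ovary stood at 1 RPKM or more in 519 of the 640 (81.1%), near the 79.1% of all genes.

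**Figure D4:**
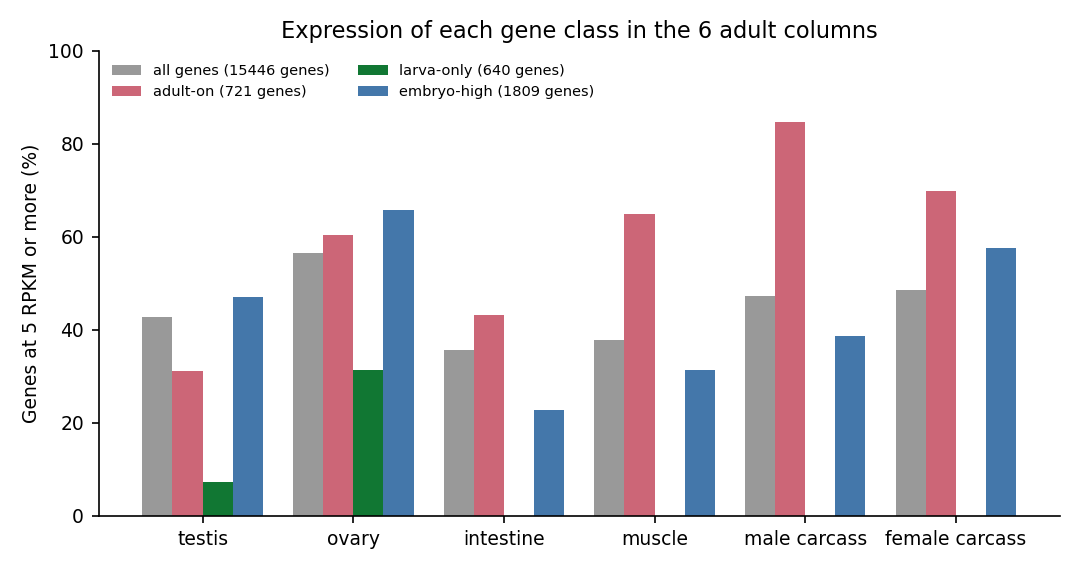
Bars give the percentage of genes at 5 RPKM or more in each adult column (x axis), for all genes and for the 3 classes. The missing bars of larva-only genes in the 4 somatic columns follow from the rule. In testis 7.34% and in ovary 31.4% of larva-only genes reach 5 RPKM, and embryo-high genes reach it in female carcass (57.6%) more often than in male carcass (38.6%).

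The ovary values of larva-only genes varied less, as a share of the larva level, among abundant genes. At 5 RPKM or more in larva (597 genes) the ovary level had a median of 11.6% of that in larva, with quartiles of 8.89% and 18.8%. At 50 RPKM or more in larva (127 genes) the median was 9.90%, with quartiles of 8.37% and 14.3%, and at 200 RPKM or more (18 genes) a median of 8.52%, with quartiles of 7.62% and 9.96%. Testis stood at 0.0174% and embryo at 0.372% of larva in those 18 genes. Of the 127 genes 3.15% had an ovary level below 5% of larva, whereas 93.7% did in testis, 74.0% in embryo and 99.2% in intestine. Of 276 adult-on genes at that larva level, 2 did so in ovary. These adult-on genes had a wider range of ovary levels, with a median of 19.1% of larva and quartiles of 10.8% and 40.0%. In the plot of ovary level by larva level, most larva-only genes lie near a lower edge, and many adult-on genes, the testis-led genes and some genes with more RNA in ovary than in larva lie above it.

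**Figure D5:**
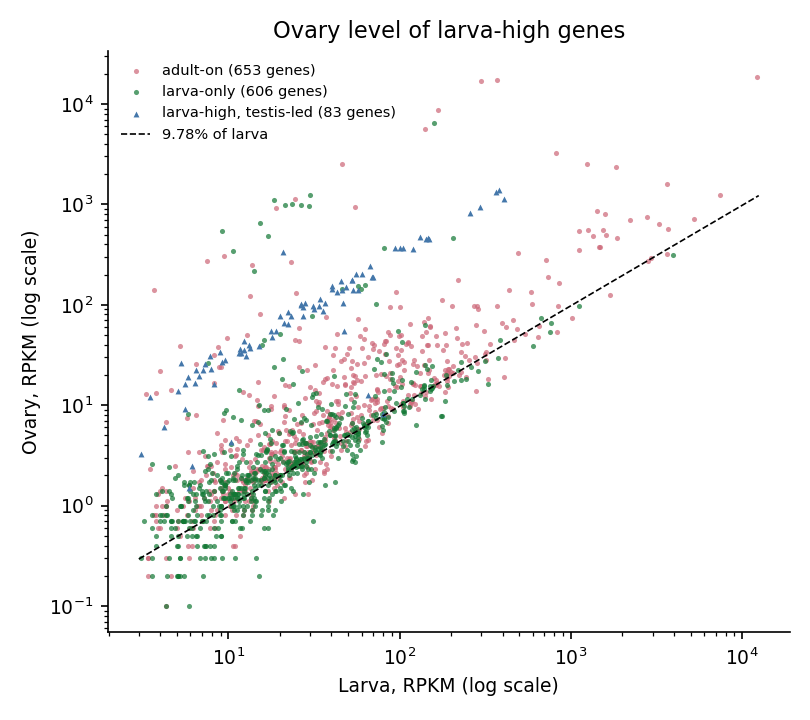
Each point is a larva-high gene at its larva level (x) and ovary level (y), in RPKM on log axes; 19 genes listed at 0 in ovary are left out. The dashed line is 9.78% of the larva level, the median of larva-led genes. Larva-only genes (606) crowd near the line, whereas many adult-on genes (653) and the 83 testis-led genes lie above it.

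The 2 larva-only genes with the largest ratios were also the most abundant. ASG01436 stood at 3927 RPKM in larva, 0.2 in embryo and 315.4 in ovary, with 1.6 in muscle, 2.8 in female carcass and 3.7 in male carcass, and was listed at 0 in testis and intestine (log2 ratio 11.68). ASG07223 stood at 1108.3 RPKM in larva, 0.2 in embryo, 0.8 in female carcass and 96.8 in ovary, and the remaining 4 columns listed it at 0 (log2 ratio 9.85). Neither had an adult somatic level above 0.1% of that in larva. Their ovary levels, 8.03% and 8.73% of larva, lay within the range of the other abundant larva-only genes. ASG01436 and the leading adult-on gene, ASG01437, have consecutive identifiers and the same order of levels over the columns that list them, and male carcass at 3.7 and 6.6 RPKM is what put them into different classes.

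The share of larva-only genes varied with the level in larva, which is also part of what defines the class. It was 58.1% of the 74 larva-high genes from 3 to under 5 RPKM in larva, 62.9% of 232 from 5 to under 10, 54.8% of 303 from 10 to under 20, 45.3% of 349 from 20 to under 50, 35.9% of 304 from 50 to under 200 and 18.2% of 99 at 200 RPKM or more. Genes whose highest adult somatic level was below 10% of larva, a limit that itself rises with the larva level, made up 28.4%, 32.3%, 37.3%, 35.5%, 48.0% and 42.4% of these groups, in the same order. By that relative limit, chosen after the values were seen, 521 of the 1361 larva-high genes had little adult somatic expression, 460 of them from the larva-only class.

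Embryo-high genes had medians of 33.8 RPKM in embryo and 2.9 RPKM in larva, and 389 of the 1809 (21.5%) were below 1 RPKM in larva. Most were also present in ovary, where 1188 (65.7%) reached 5 RPKM, against 56.5% of all genes, which include those hardly expressed in embryo. At 50 RPKM or more in embryo, 16.8% of 671 embryo-high genes stood in ovary below 5% of their embryo level. Among all 2692 genes at that embryo level 4.61% did, so at like levels low ovary values were more frequent in the class. In ovary 86.9% of the class reached 1 RPKM, against 79.1% of all genes. The 237 below 1 RPKM in ovary had a median of 15.2 RPKM in embryo, and 163 were below 1 RPKM in testis as well. In 242 genes (13.4%) no other column reached 5 RPKM, for which no share over all genes was counted. The 2 largest ratios belonged to genes that the gonads hardly listed. ASG00628 stood at 354.2 RPKM in embryo, 1 in larva and 11.2 in female carcass. It had 0.5 RPKM in muscle, 0.2 in intestine, 1.2 in testis and 1.1 in male carcass, and was listed at 0 in ovary (log2 ratio -7.47). ASG01787 stood at 339.9 RPKM in embryo, 2 in larva and 19.6 in female carcass. It had 0.4 RPKM in intestine, 0.4 in ovary, 1.2 in testis, 4.3 in male carcass and 5.4 in muscle (log2 ratio -6.83).

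In both genes the highest level outside embryo was that of female carcass. Over the class ovary had a higher median than female carcass (10.5 against 6.4 RPKM), but among the adult somatic columns female carcass stood highest. Of the embryo-high genes 1042 (57.6%) reached 5 RPKM in female carcass, above the 48.5% of all genes, whereas male carcass (38.6% against 47.3%), muscle (31.3% against 37.9%) and intestine (22.8% against 35.5%) lay below. The set of all genes includes those hardly expressed in embryo, so this excess does not isolate the class. At 50 RPKM or more in embryo, 15.1% of 671 embryo-high genes had a female carcass level below 5% of that in embryo. Among all 2692 genes at that embryo level 6.20% did, so at like levels low values there were more frequent in the class. Female carcass was the only adult somatic column at 5 RPKM or more for 334 embryo-high genes (18.5%), against 5.24% of all genes. Male carcass was so for 30 (1.66%), against 3.30% of all genes. The 194 embryo-led genes (50 RPKM or more and at least 5 times every other column) stood in female carcass at a median of 6.29% of their embryo level (quartiles 4.24% and 10.7%), in larva at 7.07%, in ovary at 5.08%, in male carcass at 1.87%, in muscle at 0.783% and in intestine at 0.458%. The label of female carcass names no gonad or uterus, and what the proportion in that column comes from was not tested.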

How the data were processed

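The authors deposited 1 table of RPKM values with 1 decimal, for 15446 genes in 8 columns. The submitters' processing notes name TopHat and Cufflinks, and the sources used here give no version of them, nor the build, annotation, gene lengths or read totals. Per the labels' protocols, RNA was selected for poly(A), fragmented, primed with random hexamers, amplified by PCR and sequenced on Illumina GAII or HiSeq2000. RPKM rounded to 0.1 did not allow whole reads to be recovered, so the depth is unknown and no interval is given for a level. A value of 0 is called listed at 0. Columns were matched to samples by their titles. Columns from outside the series numbered 0.

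Values were used as deposited, with a pseudocount of 1 RPKM and no filter, in Python 3.11.15 with pandas 2.3.3 and numpy 2.4.6. With 1 library per column no test was made. The counting rule was run on simulated data with changes far above the threshold and little noise. That checks the code only and says nothing on the error of the calls. Identifiers named are the 2 with the largest ratio in each class where the higher of larva and embryo reaches 10 RPKM, and the 2 highest in larva among larva-high genes led by intestine and by body wall. The classes, limits and groups were chosen with earlier results of these data known. Gene lists by name could be matched to no identifier and were not used. Alternatives were other pseudocounts, limits and thresholds, 3 rescalings, single adult columns left out, and a subtraction from larva of the median percentages at which genes led by testis (130 genes, 1.20%) and by ovary (33 genes, 2.37%) at 500 RPKM or more over all columns stand in it.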

Additional observations from a re-analysis of the deposited data

How the results depend on the processing

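The 81 alternative values included 48 that stayed within 1.5 times the reported count, or within the 95% binomial interval (Wilson) of a reported share. Most that moved did so by construction, through another size limit. Larva-high genes numbered 2194 with a pseudocount of 0.1 RPKM, 653 with one of 5 RPKM, 2928 at a log2 threshold of 1 and 673 at one of 3. Embryo-high genes numbered 929 with a pseudocount of 5 RPKM, 4448 and 727 at log2 thresholds of 1 and 3, 1097 with upper-quartile scaling and 925 with the median of ratios. Larva-only genes numbered 1163 and 251 with pseudocounts of 0.1 and 5 RPKM, 1346 and 315 at log2 thresholds of 1 and 3, 282 and 426 with adult limits of 1 and 2 RPKM, and 419 with both gonads in the split. Adult-on genes numbered 402 with a pseudocount of 5 RPKM, and 1582 and 358 at log2 thresholds of 1 and 3. Leaving any 1 adult somatic column out of the split gave 663 to 710 larva-only genes. The share on in larva, at limits of 1 and 10 RPKM, was 65.8% and 22.3% for intestine-led genes, 77.2% and 39.0% for body-wall-led, 81.5% and 12.5% for testis-led, and 100% and 75.9% for ovary-led genes. It was 17.0% (9 of 53) for genes led by intestine at 10 times, 42.3% (132 of 312) for body-wall-led and 16.5% (202 of 1225) for testis-led genes chosen after scaling by the median of ratios, 17.7% for testis-led genes at 20 RPKM, and after the subtraction 5.56% for testis-led and 65.4% for ovary-led genes. In these alternatives the body-wall share stayed above the intestine share. No paired analysis was possible because each stage or tissue has a single column and replicate numbers pair no samples. Depth is unknown, so how far it limits low values cannot be given.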

Other observations

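Genes of a class often had consecutive identifiers. The identifiers run from 1 to 15446 without a gap, and the sources used here do not say whether their order follows the genome. Of the 1809 embryo-high genes 694 (38.4%) had an embryo-high gene at the preceding or following identifier, against 21.3% of all genes that had one. For larva-high genes these shares were 32.3% (440 of 1361) and 16.6%, and for larva-only genes 24.2% (155 of 640) and 8.02%. The longest run of consecutive identifiers was 8 for embryo-high, 7 for larva-high and 4 for larva-only genes. Whether neighbouring identifiers stand for neighbouring genes, for members of a family or for parts of the same gene was not tested.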
